A study of Mus musculus with 8 samples.

Results

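RNA from undifferentiated mouse embryonic stem cells labelled as carrying a short hairpin against Mef2c was compared with RNA from the same cell line carrying a control hairpin, at day 0. This comparison used 2 of the 8 libraries of the series, the library labelled shMef2c and the library labelled shCtrl, chosen by their day and hairpin labels. It covered the 12103 of 19011 listed genes whose mean level over these libraries was 1 RPKM or more, where RPKM scales reads by transcript length and by library depth. All 4 day 0 libraries (wild type or WT, LincNDIME_KO or KO, shCtrl, shMef2c) were of polyadenylated RNA from the mouse embryonic stem cell line 46C, with the strain given as C57BL/6, kept on irradiated mouse embryonic fibroblasts with leukemia inhibitory factor and serum. The labels name no deletion in the WT, shCtrl or shMef2c cells, and give the KO cells as a knockout of LincNDIME. The day 5 libraries of the same 4 groups came from cells re-aggregated in low-adhesion dishes and labelled as derived neural progenitor cells. Each group was 1 culture and 1 library on each day, so no difference given here has a replicate check, no test was run, and intervals cover counting error only. The hairpin sequences, the vector and the selection are not given in the sources used here, nor is any removal of the feeder fibroblasts before RNA extraction.

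Mef2c encodes a transcription factor of the MEF2 family, which binds A- and T-rich sites and partners with class IIa histone deacetylases that hold its targets silent. It is best known in muscle, heart and maturing neurons, and is not counted among the factors that keep stem cells undifferentiated. A hairpin is cut by the cell's Dicer enzyme into a small RNA that guides Argonaute proteins to matching messenger RNA. Embryonic stem cells held with leukemia inhibitory factor and serum express Nanog, Esrrb, Klf4 and Zfp42, and move toward a formative state, marked by Otx2, Pou3f1 and Fgf5, as they leave naive pluripotency.

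Mef2c itself was scarce, and its level went against the label. It was listed at 0.37 RPKM in the library labelled shMef2c, 0.16 in shCtrl, 0.23 in WT and 0.24 in KO, from 44, 20, 29 and 26 estimated reads. This made the library labelled shMef2c the highest of the 4, with a share of reads 2.21 times that of shCtrl (exact Clopper-Pearson 95% interval 1.27 to 3.95). Mef2c stood below the limit of 1 RPKM in every day 0 library and so was not among the 12103 genes. Where the reads fall along Mef2c is not resolved by a table of 1 value a gene. Markers of fibroblasts, the cells of the feeder layer, summed to 361 RPKM in the library labelled shMef2c against 221 in shCtrl. The part of feeder RNA in the Mef2c reads was not tested. In the day 5 libraries of the same labels the order was the other way, with 0.12 FPKM (a like unit counted over fragments) and 20 reads under the shMef2c label against 0.50 FPKM and 82 reads under shCtrl. Every direction below is therefore that of the library labelled shMef2c, not of a measured loss of Mef2c.

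The other MEF2 factors and their partners lay close together in the hairpin pair. Mef2a, a family member found in most tissues, stood at 6.18 RPKM in the library labelled shMef2c and at 5.08, 5.03 and 5.40 in shCtrl, WT and KO, a read share 1.21 times that of shCtrl (1.09 to 1.36). Mef2d was listed at 10.3 and 10.9 RPKM in the library labelled shMef2c and shCtrl, and Mef2b at 0.88 and 0.91. The class IIa histone deacetylases Hdac4, Hdac5, Hdac7 and Hdac9 had log2 ratios between -0.03 and 0.17, where the log2 ratio here and below is log2((RPKM + 1)/(RPKM + 1)). Hdac5 was listed at 10.5 and 10.7 RPKM in the pair and, farther apart, at 16.0 in WT and 7.85 in KO. Of 30 genes listed as targets of MEF2 factors in muscle, neurons or lymphocytes, 17 passed the filter, 0 were past 1.5-fold, and their median log2 ratio was 0.08 beside 0.035 over all genes. Homer1, a scaffold of the postsynaptic density, was the highest of them at 7.51 against 5.88 RPKM. Klf2 was the lowest at 234 against 264 RPKM.

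Of the 6 pairs that the 4 day 0 libraries form, the library labelled shMef2c and shCtrl were the most alike. Only 28 of 12103 genes (0.231%) were 2-fold or more apart, 16 higher (0.132%) and 12 lower (0.0991%) in the library labelled shMef2c. The other pairs had 151 of 11921 genes past 2-fold for shCtrl over WT (1.27%, with 0.755% higher and 0.512% lower), 216 of 12006 for KO over shCtrl (1.8%), 282 of 12165 for the library labelled shMef2c over KO (2.32%), 313 of 12087 for it over WT (2.59%) and 352 of 12002 for KO over WT (2.93%, with 1.35% higher and 1.58% lower). The standard deviation of the log2 ratio over genes was 0.228 in the pair of hairpin libraries, 0.317 for shCtrl over WT and 0.430 for KO over WT. At day 5 the same hairpin labels differed 2-fold at 1208 of 13041 genes (9.26%, with 4.49% higher and 4.78% lower), with a standard deviation over genes of 0.638. In RPKM, the small differences at day 0 leaned to the higher side. At 1.5-fold, 251 genes were higher (2.07%) and 67 lower (0.554%), and 57.3% of genes had a ratio above 0 against 42.3% below it. The side of 0 with more genes depended on the scaling. The median over all genes was 0.035 in RPKM, -0.026 with edgeR's TMM scaling and -0.029 with DESeq2 size factors. For 31.4% of genes the library labelled shMef2c was the highest of the 4 libraries, and for 21.0% the lowest.

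**Figure D1:**
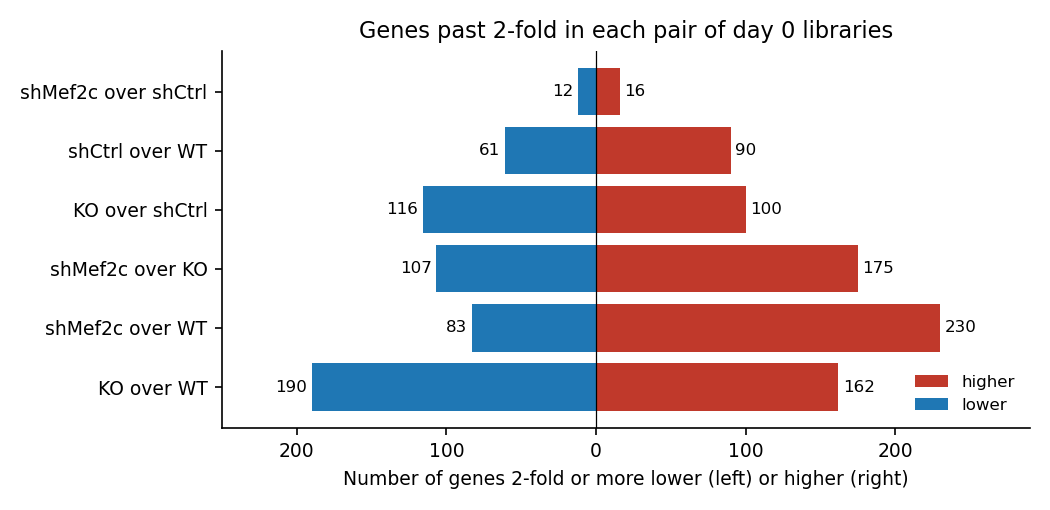
Number of genes 2-fold or more higher (right, red) or lower (left, blue) in each pair of the 4 day 0 libraries, for genes with a mean of 1 RPKM or more over the pair and 1 library on each side. The hairpin pair has 16 and 12, the smallest counts of the 6 pairs.

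Depth was even, from 20312032 to 20883674 reads in genes over the 4 day 0 libraries and from 25996204 to 26834802 over those of day 5. Markers of embryonic stem cells (8 genes) summed to 2503 RPKM in the library labelled shMef2c and 2438, 2185 and 2436 in shCtrl, WT and KO. Markers of other cell types stood far lower, at 5.06 against 4.16 RPKM for 8 endoderm markers, where Foxa2, Afp and Ttr were under 0.1 RPKM in all 4 libraries, 13.1 against 9.70 for 6 neural progenitor markers, 12.0 against 11.1 for 4 mesendoderm markers and 0.97 against 0.67 for 4 trophoblast markers. Of the neural progenitor sum, 11.6 against 7.95 RPKM came from Fabp7. The 10 fibroblast markers summed to 361 RPKM in the library labelled shMef2c against 221, 215 and 201.

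Of the 28 genes past 2-fold, 18 carried clone-like or predicted names, or names of histones or of a zinc finger group on chromosome 2. Genes so named can have near-identical copies that exchange reads in the counting, which was not checked gene by gene. The clearest case was that zinc finger group. Gm14434 was listed at 10.1 RPKM in the library labelled shMef2c and 0.01 in shCtrl, and Zfp966 at 6.72 and 0.77, while Gm14288 stood at 2.85 and 8.35 and Zfp967 at 8.04 and 16.0. Summed over the 10 copies the libraries held 78.5 and 80.9 RPKM. Single values of these genes are therefore uncertain. The histone genes Hist1h4n (0.06 against 3.14 RPKM) and Hist1h2af (0.86 against 2.77) were lower and Hist2h3c1 (2.36 against 0 RPKM, 31 against 0 reads) higher, by 10.4-fold in reads against a floor of 3 reads for the library at 0. The exact 95% interval of that gene's read share ratio begins lower, at 7.94. In all, 6 of the 28 genes were listed at 0 RPKM in 1 of the libraries.

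That left 10 genes with other names, 5 lower and 5 higher in the library labelled shMef2c. The lower genes were Otx2, Phlda2, Cox7c, Cox20 and Spink1, and the higher genes were Ccl6, Pf4, H2-Q6, Anxa8 and Pramel7. H2-Q6, a nonclassical histocompatibility gene, and Pramel7 belong to families of similar genes, so their values are uncertain too. H2-Q6 was listed at 2.45 RPKM in the library labelled shMef2c against 0.57, 1.09 and 0.46 in shCtrl, WT and KO, from 49, 11, 22 and 9 reads. Spink1, an inhibitor of trypsin, rested on the fewest reads of these 10 genes, at 0.49 RPKM and 4 reads against 2.09 RPKM and 17 reads in shCtrl. Cox7c, Cox20 and Spink1 are short, each under 500 bases by the length that reads and RPKM imply. Of the 149 genes that passed with under 500 bases, 10 were at least 1.5-fold higher and 13 lower, against 251 and 67 of all 12103, and the part of gene length in these values was not tested. The nearest gene inside the 2-fold limit was Cox7c on the lower side (log2 ratio -1.01) and Gm5796 on the higher side (1.03), and the nearest gene outside it among named genes was Krt17 on the lower side (-0.94) and Entpd4 on the higher side (1.00 after rounding).

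Otx2, a homeobox factor of the formative epiblast and of the anterior brain, was the lowest of the stem cell regulators. It was listed at 1.01 RPKM in the library labelled shMef2c and at 4.02, 4.80 and 6.80 RPKM in shCtrl, WT and KO, from 47, 187, 224 and 309 reads. This put the library labelled shMef2c below the others, and the read share was 0.252 times that of shCtrl (0.179 to 0.349), a log2 ratio of -1.32. The other formative genes did not share a direction. Tcf15 (11.2 against 17.4 RPKM) and Pou3f1 (1.61 against 2.39) were lower, Lef1 (1.38 against 0.65) and Sox3 (1.61 against 0.89) were higher, Dnmt3a and Dnmt3b had log2 ratios of -0.02 and 0.11, and Fgf5 was under the limit. Over the 19 of 24 formative genes that passed, the median log2 ratio was 0.05, with 11 above 0, 8 below, 1 past 2-fold and 2 past 1.5-fold, both lower.

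The 250 bases before the start of Otx2 hold a match to the MEF2 site pattern, and so do those of Inhba, the highest of the genes past 1.5-fold with such a match. Both are shown 5′ to 3′ on the gene's strand with the match in capitals, because the labels name a MEF2 factor as the target. Otx2 lies at chr14:48665110-48665359 on the minus strand and Inhba at chr13:16011601-16011850 on the plus strand (RefSeq promoters, build GRCm38.p6).
Otx2: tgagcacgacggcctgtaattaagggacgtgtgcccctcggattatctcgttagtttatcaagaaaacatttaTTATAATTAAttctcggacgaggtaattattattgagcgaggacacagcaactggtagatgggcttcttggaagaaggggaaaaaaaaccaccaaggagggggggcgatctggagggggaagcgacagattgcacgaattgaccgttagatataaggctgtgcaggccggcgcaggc
Inhba: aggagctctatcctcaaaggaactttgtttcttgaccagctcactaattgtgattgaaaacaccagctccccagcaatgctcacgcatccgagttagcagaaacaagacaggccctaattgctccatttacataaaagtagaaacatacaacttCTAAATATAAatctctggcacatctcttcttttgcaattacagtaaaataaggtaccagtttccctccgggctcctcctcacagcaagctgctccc
Inhba, a subunit of the secreted factor activin, was listed at 10.2 RPKM in the library labelled shMef2c against 4.91, 6.03 and 6.21 in shCtrl, WT and KO. The pattern, searched by name as the MEF2 site on both strands, occurred in the 250 bases before 166 of 9705 genes that passed the filter and had a RefSeq promoter (1.71%). It occurred in 8 of 190 genes at least 1.5-fold higher (4.21%) and in 1 of 44 at least 1.5-fold lower (2.27%), which is Otx2. The 8 higher genes were Inhba, Thbs2, Prss23, Aspa, Serpina3f, Filip1l, Fgf13 and Crhr2, and Thbs2 is also in the fibroblast list described below. Fibroblast genes stood higher in the same library, and their part in the share of 4.21% was not tested. A match is a run of letters and was not measured as a bound site.

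Naive pluripotency genes lay close together in the hairpin pair, and Nanog was the exception among abundant ones. Nanog, the homeobox factor that resists differentiation, was listed at 578 RPKM in the library labelled shMef2c, 416 in shCtrl, 370 in WT and 528 in KO, a read share 1.38 times that of shCtrl (1.36 to 1.41). The library labelled shMef2c was the highest, and KO lay nearer to it than shCtrl did. Fgfbp1, which releases fibroblast growth factors from the matrix, was listed at 9.58 against 6.30 RPKM. Zfp42 (360 against 367), Esrrb (186 against 189), Tfcp2l1 (67.7 against 68.5) and Dppa3 (20.6 in both) were within a log2 ratio of 0.03 of each other. Dppa3 stood much higher in WT, at 84.9 RPKM, and at 16.0 in KO. Klf2 and Tcl1 were the lowest at -0.18 and -0.21. None of the 27 genes was past 1.5-fold, their median was 0.08, and the 15 core pluripotency genes had a median of -0.01. At day 5 the naive genes had a median log2 ratio of 1.63 for the same labels, with Nanog at 148 against 36.7 FPKM.

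Phlda2, an imprinted gene that limits placental growth, was listed at 24.5 RPKM in the library labelled shMef2c against 66.2, 60.5 and 31.1 in shCtrl, WT and KO. The library labelled shMef2c was the lowest of the 4, with KO nearest to it, and its read share was 0.369 times that of shCtrl (0.326 to 0.416). At day 5 Phlda2 was again lower under the shMef2c label, at 5.13 against 12.5 FPKM. Cdkn1c, the imprinted gene of the cell cycle brake p57, which neighbours Phlda2 in the same cluster on chromosome 7, was listed at 4.45 RPKM against 8.91 in shCtrl, 4.87 in WT and 2.02 in KO, so that shCtrl was the high library. At day 5 it was listed at 2.85 against 127 FPKM. Ascl2, a trophoblast factor from that cluster, stood at 1.30 against 2.71 RPKM, with WT at 2.32 and KO at 1.34. On chromosome 6 the paternally expressed genes Peg10 (10.3 against 19.2 RPKM) and Mest (20.6 against 36.0) were lower as well, with WT at 27.9 and 26.6 and KO at 10.99 and 1.90. The list of imprinted genes chosen here does not hold every imprinted gene. Of its 26 genes that passed, these 5 were at least 1.5-fold lower, beside 0.554% of all genes. Peg12 was the 1 of the list at least 1.5-fold higher (2.37 against 1.24). The other 20 lay between -0.15 and 0.44, and the median of the 26 was -0.01, so no shift of the list as a whole was seen.

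Cox7c and Cox20 were the respiratory genes past 2-fold. Cox7c, a small subunit of cytochrome c oxidase, was listed at 254 RPKM in the library labelled shMef2c, 513 in shCtrl, 364 in WT and 540 in KO, from 2207, 4470, 3192 and 4601 reads. The library labelled shMef2c was lowest and WT next, and the read share was 0.495 times that of shCtrl (0.471 to 0.521). At day 5 it was listed at 467 against 702 FPKM. Cox20, an assembly factor of the same enzyme, was listed at 6.77 RPKM against 15.0, 10.4 and 19.09, in the same order of libraries, and at 31.2 against 49.2 FPKM at day 5. Of 41 genes of oxidative phosphorylation, Cox7c was the only one past 1.5-fold either way, their median was -0.01, and 8 were lowest in the library labelled shMef2c. The other cytochrome c oxidase subunits of the list, such as Cox4i1 (373 against 348 RPKM), Cox5a (274 against 275) and Cox6c (192 against 197), lay within a log2 ratio of 0.10. Cox4i2, an alternative form of subunit IV outside that list, was listed at 0.56 against 1.73 RPKM. Cox7c lies 4 protein-coding genes away from Mef2c on chromosome 13 in RefSeq gene order. The genes between them, Tmem161b, Ccnh and Rasa1, had log2 ratios of -0.09, 0.10 and 0.13, and Cetn3 on the other side of Mef2c had -0.09. Mcts2, a translation factor gene that arose as a copy of Mcts1, so that reads of both can mix, was listed at 12.95 RPKM against 23.8, 24.0 and 22.02, below all other libraries, with a log2 ratio of -1.08 at day 5.

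Among the higher genes, Ccl6, Pf4 and Cd84 belong to blood cells. Ccl6, a chemokine of macrophages, was listed at 4.55 RPKM in the library labelled shMef2c and 1.28, 2.29 and 4.70 in shCtrl, WT and KO, a read share 3.54 times that of shCtrl (2.45 to 5.22). Pf4, a chemokine of platelets and macrophages, was listed at 7.83 against 2.83, 3.50 and 6.14 RPKM. Cd84, a receptor of myeloid and lymphoid cells, was listed at 15.7 against 7.44, 4.51 and 10.2 RPKM, a log2 ratio of 0.98. In each of these genes the library labelled shMef2c and KO were the high libraries, and shCtrl and WT the low ones. A list of 29 macrophage genes was added after these values were seen. Of the 27 that passed, 26 had ratios above 0, 10 were at least 1.5-fold higher, 2 were past 2-fold and 23 were highest in the library labelled shMef2c, with a median log2 ratio of 0.48 beside 0.035 for all genes. Lyz2, the macrophage lysozyme, was listed at 152 against 92.0, 68.8 and 104 RPKM, the complement subunit C1qb at 11.1 against 6.09, 6.06 and 8.26, and the receptor Csf1r at 3.26 against 2.49, 1.68 and 2.43. Laptm5 (49.0 against 49.4) and Ccl3 (10.6 in both) had ratios near 0. Summed over the list the libraries held 419, 284, 208 and 339 RPKM. The part of blood cells or of the feeder culture in these values was not tested. Fewer cells of a type and less RNA per cell cannot be told apart in such bulk samples, here or below.

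Fibroblast genes had the highest median of any list. All 35 fibroblast genes listed passed the filter and all 35 had ratios above 0, with a median log2 ratio of 0.65. Of them 23 were at least 1.5-fold higher, 0 were past 2-fold, and 33 were highest in the library labelled shMef2c. Col1a1 and Col1a2, the chains of type I collagen, were listed at 140 and 92.1 RPKM in the library labelled shMef2c. The other libraries lay close to each other, at 86.5, 83.6 and 76.2 RPKM for Col1a1 and 55.4, 54.1 and 49.1 for Col1a2 in shCtrl, WT and KO. Lox, which cross-links collagen, was listed at 89.6 RPKM against 51.5, 51.6 and 51.5. Thbs1, a matrix protein that frees transforming growth factor beta, was listed at 83.6 against 43.4, 49.6 and 49.4 RPKM, and the metalloproteinase inhibitor Timp3 at 34.0 against 18.2, 20.5 and 19.5. The summed level of the list was 1342 RPKM in the library labelled shMef2c and 903, 928 and 895 in shCtrl, WT and KO. For Lox, Thbs1, Timp3, Col1a1 and Col1a2 the library labelled shMef2c lay above all others, which lay close together. The smallest ratio was that of Fn1, fibronectin, at 231 against 214 RPKM, with WT at 233 and KO at 249. For shCtrl over WT the list had a median of -0.00, and at day 5, where the cells were grown in low-adhesion dishes, it had a median of -0.29 for the hairpin labels over the 24 genes that passed there.

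**Figure D2:**
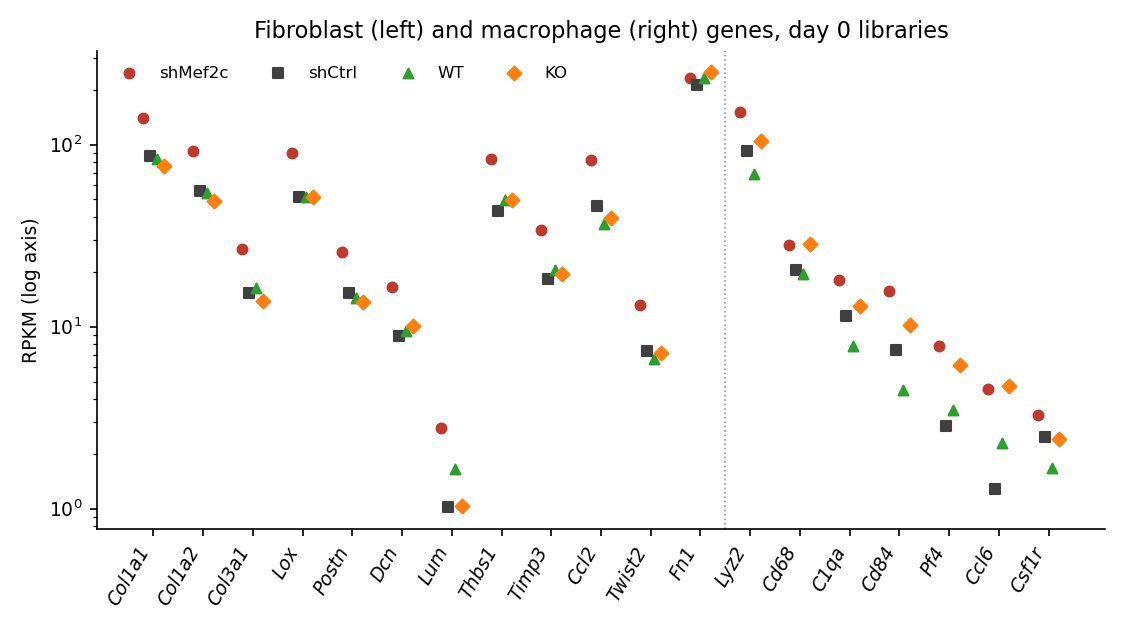
RPKM (log axis) of 12 fibroblast genes (left of the dotted line) and 7 macrophage genes (right) in the 4 day 0 libraries, 1 point a library. The library labelled shMef2c is above the others for the fibroblast genes except Fn1, where KO is highest, and KO is nearer to it for macrophage genes such as Pf4 and Ccl6.

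Other genes of matrix and contraction also stood higher, and the fibroblast markers (361 against 221 RPKM) stand beside each of the following lists. Their part in these results was not tested. All 20 collagen genes that passed, of 44, had ratios above 0, with a median of 0.56 and 9 at least 1.5-fold higher. The range ran from Col18a1 (62.2 against 61.7 RPKM) to Col12a1 (19.12 against 10.7). Of 14 contractile genes that passed, 13 had ratios above 0 and the median was 0.34. Acta2, smooth muscle actin, was listed at 64.7 against 37.6, 31.2 and 34.0 RPKM, the light chain Myl9 at 14.5 against 8.01, 6.76 and 7.94, and Actn1 at 77.5 against 78.3. The basement membrane and collagen chaperone genes of the endoderm list, Col4a1 (20.7 against 14.2 RPKM), Col4a2 (14.2 against 9.26), Sparc (217 against 162) and Serpinh1 (60.5 against 38.9), were higher too, while Lama1 (8.41 against 8.06) was close and Lamc1 (50.1 against 58.5) lower. Of the 251 genes at least 1.5-fold higher, 41 were in the fibroblast, collagen, contractile, YAP or macrophage lists. These lists had 35, 20, 14, 10 and 27 members among the 12103 genes, with overlaps. The collagen, YAP and macrophage lists were added after the values were seen. Of the 251 genes, 218 (86.9%) were highest in the library labelled shMef2c among the 4, beside 31.4% of all genes. The 251 were chosen for high values in that same library, so a large share follows from the choice.

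Targets of the YAP and TEAD factors, which answer to cell spreading and stiffness, also stood higher, and 3 of them (Thbs1, Ctgf and Cyr61) are in the fibroblast list too. The list of 10 genes was added after the values were seen. All 10 had ratios above 0, with a median of 0.50 and 4 at least 1.5-fold higher. Ankrd1, a nuclear ankyrin repeat protein used as a YAP reporter, was listed at 4.70 RPKM against 1.86, 3.02 and 3.13 in shCtrl, WT and KO, a read share 2.52 times that of shCtrl (1.89 to 3.39). Ctgf, a secreted matrix-associated protein, was listed at 90.2 against 66.4, 79.1 and 61.2 RPKM. Ankrd1 and Ctgf were both highest in the library labelled shMef2c. The 250 bases before Ankrd1, at chr19:36119845-36120094 on the minus strand (RefSeq, GRCm38.p6), hold 2 matches to the TEAD motif CATTCC, shown in capitals as read on the gene's strand.
Ankrd1: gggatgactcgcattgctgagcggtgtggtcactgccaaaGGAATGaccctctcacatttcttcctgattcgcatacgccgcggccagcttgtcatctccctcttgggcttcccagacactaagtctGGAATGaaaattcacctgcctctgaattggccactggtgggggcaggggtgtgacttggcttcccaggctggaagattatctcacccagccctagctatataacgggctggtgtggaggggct
The motif, searched on both strands (a match on the other strand reads GGAATG), occurred before 5 of the 7 genes of the list with a RefSeq promoter and before 12.9% of the 9705 genes. It occurred before 4 of 21 fibroblast genes and 32 of 190 genes at least 1.5-fold higher (16.8%). No window held a TEAD motif overlapping another motif searched.

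Genes of cholesterol and fatty acid synthesis had the lowest median of any list. Sterol regulatory element binding proteins, encoded by Srebf1 and Srebf2, switch these genes on when membrane cholesterol is low. Of 28 that passed, 26 had ratios below 0, 21 were lowest in the library labelled shMef2c among the 4, 1 (Fdps) was past 1.5-fold and 0 were past 2-fold, with a median log2 ratio of -0.32. Fdps, which makes farnesyl diphosphate, was listed at 48.7 RPKM against 73.5, 93.6 and 53.4 in shCtrl, WT and KO, a read share 0.664 times that of shCtrl (0.618 to 0.713). Msmo1, a sterol demethylase, was listed at 25.1 against 37.4, 32.9 and 36.0 RPKM, and Scd1, which desaturates fatty acids, at 18.0 against 26.3, 31.7 and 22.3. KO lay close to the library labelled shMef2c for Fdps and far from it for Msmo1. Of the regulators, Srebf1 was listed at 14.9 against 15.3 RPKM in shCtrl and Srebf2 at 33.0 against 40.2. The list summed to 644 RPKM in the library labelled shMef2c and 832, 925 and 710 in shCtrl, WT and KO, and at day 5 its median was again -0.32. Fibroblast markers stood higher in the library labelled shMef2c by the values above, and their part in this result was not tested.

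The best known element of this response, which the sterol regulatory element binding proteins bind, was searched as TCACNCCAC on both strands. Of the 19 genes of the list with a RefSeq promoter only Hmgcs1 held it in the 250 bases, against 1.25% of the 9705 genes. Hmgcs1, which feeds the mevalonate pathway, was listed at 59.6 against 75.1, 72.0 and 53.7 RPKM, and its window lies at chr13:119690101-119690350 on the plus strand (RefSeq, GRCm38.p6), with the element in capitals.
Hmgcs1: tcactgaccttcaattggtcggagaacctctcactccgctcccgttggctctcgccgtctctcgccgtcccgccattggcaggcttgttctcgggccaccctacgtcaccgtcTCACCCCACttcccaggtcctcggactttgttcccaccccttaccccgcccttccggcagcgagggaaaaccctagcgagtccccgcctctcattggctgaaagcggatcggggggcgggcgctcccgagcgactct
The absence of a match in the other windows says only that these letters are not in them.

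**Figure D3:**
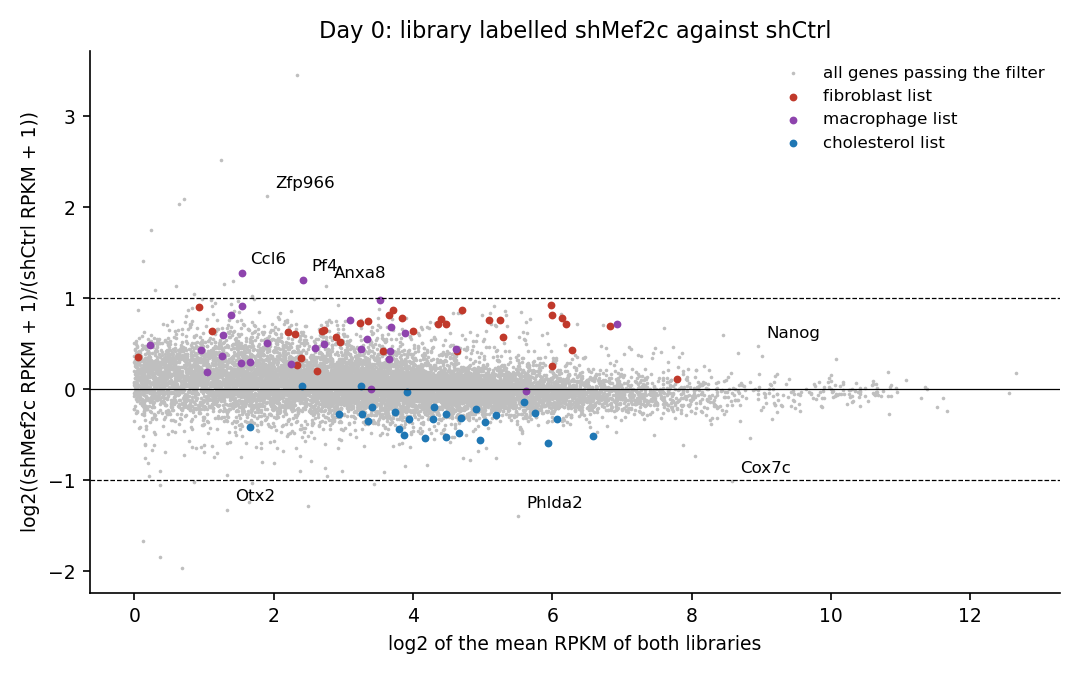
Log2 ratio of the library labelled shMef2c over shCtrl against the log2 of the mean RPKM, 1 point a gene, with the fibroblast (red), macrophage (purple) and cholesterol (blue) lists marked and dashed lines at 2-fold. All 35 fibroblast genes lie above 0 and 26 of 28 cholesterol genes lie below it, all of them inside the dashed lines.

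Targets of p53, the factor that halts or kills damaged cells, stood slightly higher in the library labelled shMef2c. Of 27 genes, 26 had ratios above 0, beside 57.3% of all genes. Of the 27, 24 were highest in the library labelled shMef2c, beside 31.4% of all genes. The median log2 ratio was 0.29, with 1 gene past 1.5-fold. That gene was Pmaip1, which encodes the death-promoting protein Noxa, at 13.9 RPKM against 8.51, 3.17 and 13.1 in shCtrl, WT and KO. Cdkn1a, the cell cycle inhibitor p21, was listed at 126 against 96.6, 78.7 and 87.2 RPKM, and Mdm2, which degrades p53, at 126 against 102, 62.4 and 101. Trp53 itself was listed at 270 against 309, 380 and 269 RPKM. Fibroblast markers (361 against 221 RPKM) also stood higher in the library labelled shMef2c, and their part in these values was not tested. WT was the lowest library for Pmaip1, Cdkn1a and Mdm2, and the median of the list was 0.71 for shCtrl over WT and 0.93 for the library labelled shMef2c over WT, comparisons that share libraries with the first.

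Genes that serve the hairpin and the response to double-stranded RNA were looked at because both cultures carry a hairpin. The 14 genes of small RNA processing that passed had a median of 0.01 and none was past 1.5-fold. Dicer1 was listed at 16.7 RPKM in both, Ago2 at 25.4 against 25.9, and Ago1 was the lowest at 10.5 against 14.5. Of 37 interferon and double-stranded RNA response genes, 19 had ratios above 0 and 18 below. The lowest 4 ratios were those of Oasl1 (3.68 against 6.75 RPKM), Ifitm1 (83.3 against 116), Oas1a (39.7 against 54.9) and Irf1 (8.60 against 11.2). The highest 4 were those of B2m (240 against 150), Isg15 (35.6 against 24.3), Tap1 (5.81 against 3.80) and H2-K1 (38.5 against 27.5). Sensors and effectors lay on both sides of 0, with Ifit3 at 10.8 against 7.57 RPKM and Rsad2 at 2.90 against 1.87.

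Neural progenitor genes that passed the filter stood a little higher in the library labelled shMef2c, and neuronal genes as a list did not. Neural cells are the fate toward which these cells were later led. Of 15 neural progenitor genes that passed, 14 had ratios above 0, 13 were highest in the library labelled shMef2c, and the median was 0.30, with 0 past 1.5-fold. Nes, the filament nestin, was listed at 12.1 against 8.75 RPKM, but WT was higher still at 13.1. Fabp7 stood at 11.6 against 7.95 RPKM, Vim at 315 against 263 and Nkx6-2 at 8.26 against 5.22. Sox21 was the lowest at 1.29 against 1.88. Nes, Vim and Cdh2 are also made by fibroblasts, whose markers stood at 361 against 221 RPKM, and their part in this result was not tested. Sox1 (0.77 against 0.82 RPKM), Pax6 (0.26 against 0.41), Hes5 (0.35 against 0.42) and Neurog2 (0.02 against 0.04) were below the limit and slightly lower. Other members below the limit, such as Sox9 (1.04 against 0.63) and Irx3 (0.98 against 0.62), were higher. The 16 neuronal genes had a median of -0.00, and Nefl, a neurofilament, was the highest at 14.3 against 9.16 RPKM. The 31 autism-associated genes that passed, a list chosen because the series title names autism, had a median of 0.05 and 0 past 1.5-fold. At day 5 the neural progenitor list had a median of -1.61 and the neuronal list -2.23 for the same labels.

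Scarcer sets showed differences in both directions. The mesendoderm factors Fgf17 (4.00 against 7.60 RPKM) and Fgf8 (0.76 against 1.68, from 16 and 36 reads) were lower, and Eomes had a log2 ratio of 0.01. Cdx1 (27.7 against 16.1) and Sp5 (8.05 against 4.94), which Wnt signalling switches on, were higher. Cdx1 stood at 5.22 RPKM in WT and 17.2 in KO. Its log2 ratio was 1.46 for shCtrl over WT, larger than the 0.75 of the hairpin pair. Etv1, a factor downstream of growth factor signalling, was listed at 3.33 RPKM against 7.06, 3.15 and 7.86, so that shCtrl and KO were the high libraries, and Fosl1 at 3.08 against 1.70, 1.01 and 1.44. Of 19 measured genes of the 2-cell-like state, 8 passed. All 8 had ratios above 0, beside 57.3% of all genes, with a median of 0.41. Pramel7 and Pramel6 (2.40 against 0.94 RPKM) were under 1 RPKM in shCtrl, so passing the filter fixed their direction. Members below the limit lay on both sides, such as Tcstv3 (0.50 against 0.68 RPKM) and Usp17le (1.08 against 0.47). Pramel7, which supports naive pluripotency, was listed at 2.79 against 0.83, 1.39 and 1.94 RPKM, and Zscan4f, of a family of near-identical copies, at 10.2 against 6.70, 1.70 and 27.1, the KO library being highest. Aim2, a sensor of cytosolic DNA, was listed at 5.21 against 10.6, 27.7 and 5.11 RPKM. Anxa8, an annexin of epithelia, was listed at 9.59 against 3.82, 2.14 and 4.85 RPKM, above all others, a read share 2.50 times that of shCtrl (2.06 to 3.04), and at 2.07 against 0.36 FPKM at day 5. Ribosomal protein genes (47, median -0.01), proliferation genes (32, median -0.07) and Polycomb genes (27, median -0.04) had 0 members past 1.5-fold.

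**Figure D4:**
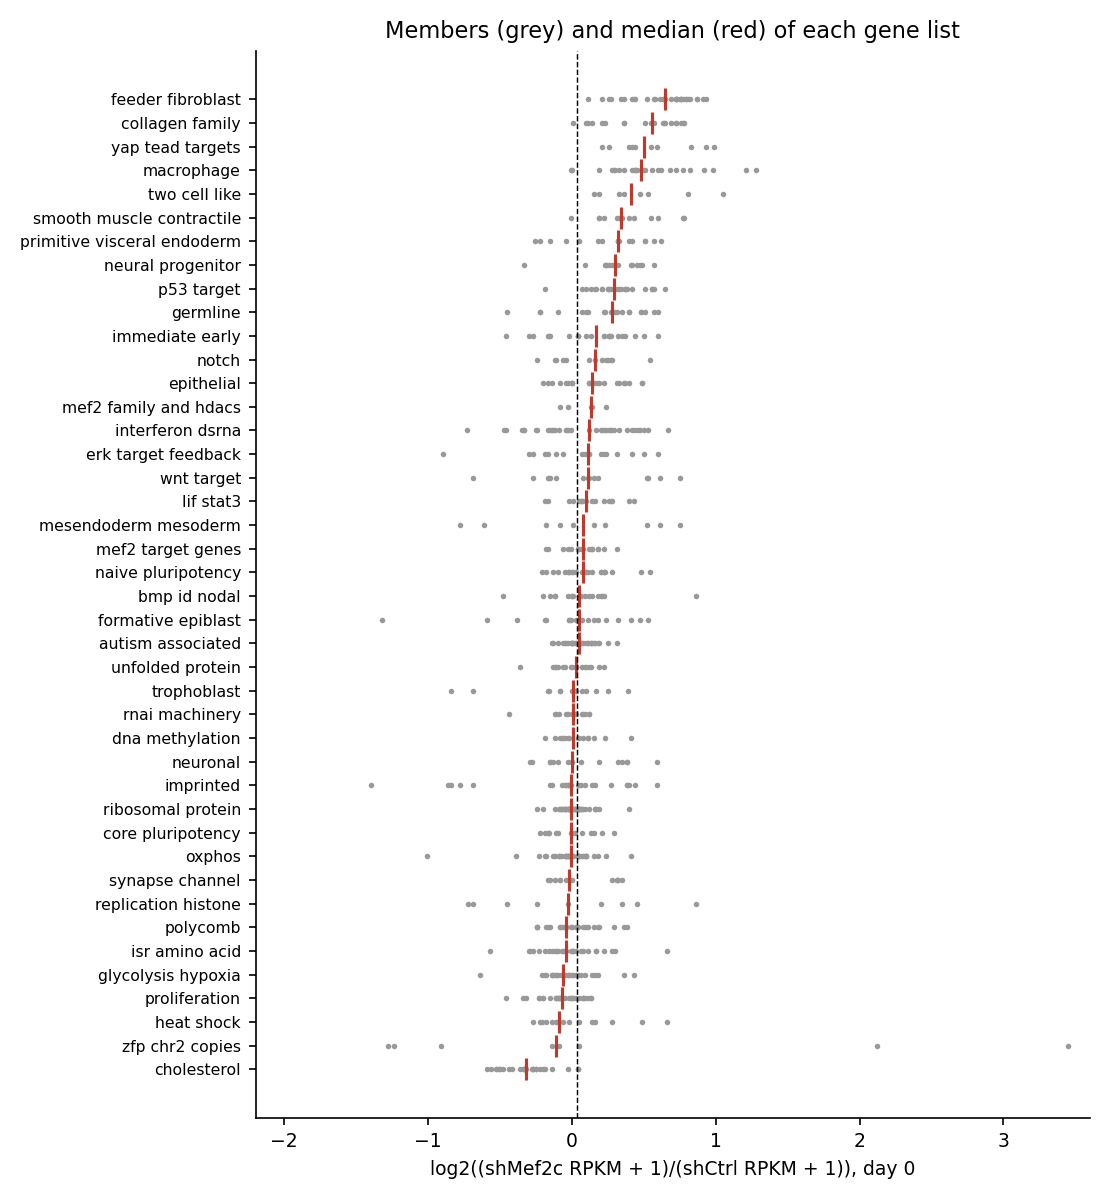
Log2 ratio of the library labelled shMef2c over shCtrl for the members (grey) and the median (red) of each gene list with at least 5 members that passed, and the median of all genes (dashed line, 0.035). The fibroblast list is at the top with 0.65 and the cholesterol list at the bottom with -0.32.

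By chromosome the pair was flat except for chromosome 6. The median log2 ratio lay between 0.005 and 0.064 on 19 chromosomes and was 0.112 over 554 genes of chromosome 6, which carries Nanog. Against WT, chromosome 6 had a median of 0.219 for the library labelled shMef2c and 0.085 for shCtrl. Chromosome 11 was level in the pair (0.005) but had a median of -0.433 for the library labelled shMef2c over WT, -0.435 for shCtrl over WT and -0.382 for KO over WT, comparisons that all share the WT library. With WT as the control, 27 of the 83 genes past 2-fold lower (0.687% of 12087), or 32.5%, were on chromosome 11, which held 8.27% of the genes tested there.

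Of the 28 genes, 9 were 2-fold or more in the same direction against both shCtrl and WT. Phlda2, Otx2 and Gm10410 were lower, and Anxa8, Hist2h3c1, Gm21312, Gm3095, Gm3050 and Gm41885 higher. Both comparisons share the library labelled shMef2c.

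The KO and WT day 0 libraries share no library with the hairpin pair. Of the hairpin pair's genes measured in both, 3 of 12 higher (25.0%, and 2.11% of the 142 higher in KO over WT) and 1 of 8 lower (12.5%, and 0.549% of 182) were past 2-fold in the same direction in KO over WT, where 1.21% and 1.55% of the genes measured in both were. The shared genes were Gm21312, Gm10698 and Gm41885 among the higher and 0610010B08Rik among the lower. All of them carry clone-like names. Exchange of reads with similar copies was not checked for these genes, so their values are held uncertain. No gene with another name was shared at 2-fold. At 1.5-fold the shares were 56 of 232 higher (24.1%, and 7.89% of 710), with 7 opposite, and 20 of 59 lower (33.9%, and 2.56% of 781), with 6 opposite, where 6.03% and 6.63% of genes measured in both were called (6.31% and 6.69% of all 12002).

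The day 5 hairpin libraries share no library with the day 0 pair either. At 2-fold, 1 of 3 higher genes (33.3%, and 0.234% of 428), Anxa8, and 1 of 8 lower (12.5%, and 0.332% of 301), Phlda2, were past 2-fold in the same direction at day 5, where 3.89% of the genes measured in both were higher and 2.74% lower. At 1.5-fold, 42 of 145 higher genes (29.0%, and 3.87% of 1085) were higher at day 5 and 26 were lower, where 9.86% of the genes measured in both were higher. Of 46 lower genes, 15 (32.6%, and 1.27% of 1182) were lower at day 5 and 9 were higher, where 10.7% of the genes measured in both were lower (10.6% higher and 13.7% lower of all 13041). Genes with the same direction on both days included Phlda2, Cdkn1c, Mest and Mcts2 among the lower and Anxa8, Cdx1 and Cd84 among the higher.

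**Figure D5:**
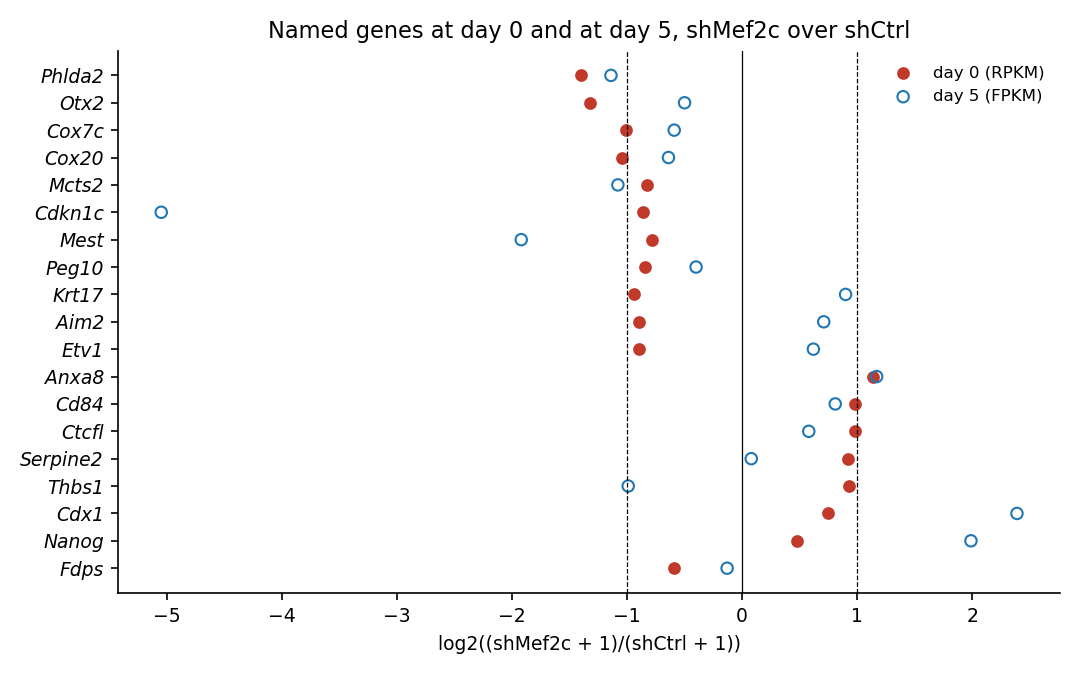
Log2 ratio of the library labelled shMef2c over shCtrl for named genes at day 0 (filled, RPKM) and day 5 (open, FPKM), with dashed lines at 2-fold. Phlda2 and Anxa8 are past 2-fold on both days in the same direction, and Thbs1, Aim2, Etv1 and Krt17 have opposite signs.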

How the data were processed

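Messenger RNA was sequenced from 8 libraries, and the day 0 pair labelled shMef2c and shCtrl is described here. The authors deposited RPKM values and estimated read counts (32.8% of read values not whole) for day 0, and FPKM values and expected counts for day 5, per the file headers. Genes not listed in a day 5 file were taken as 0. RSEM, Bowtie and Bowtie2, HISAT and HISAT2 and the build mm9 are named in the submitters' processing notes. Their roles, the use of strand and the treatment of reads shared by copies are not given in the sources used here. Values of overlapping, antisense and near-identical genes are therefore uncertain. The authors' day 5 comparison tables were not used here.

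The pseudocount of 1 makes the ratios of scarce genes smaller than the ratios of their values. Genes with a mean of 1 RPKM or more over the pair were compared and counted at 2-fold and 1.5-fold. Python 3.11.15 with pandas 2.3.3 and scipy 1.17.1 was used, and, for other scalings of the rounded counts, edgeR 4.0.16 and DESeq2 1.42.0. No model was fitted, and the ratio calculation was tested on simulated data. RefSeq tables held 18873 of the 19011 day 0 identifiers, and 26 symbols turned into dates by a spreadsheet were restored by identifier. Coordinates are RefSeq's in GRCm38.p6, not those of mm9.

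The named genes are the MEF2 family, the 15 highest and 15 lowest ratios with at least 20 reads and no clone-like name, up to 4 leading members of each of 41 lists with any past 2-fold, and up to 5 each way in 2 comparisons at once. Other genes and 4 lists (macrophage, YAP, collagen and chromosome 2 zinc finger genes) were chosen after their values were seen. The members and lists were chosen with earlier results of these data known. Mitochondrially encoded genes were not found in the table. Other lists not described above had medians between -0.09 and 0.32. The values of some single genes of these lists are not reported here.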

Additional observations from a re-analysis of the deposited data

Results flagged for a closer look

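A few genes differed in opposite directions between the hairpin labels on the different days. With 1 library in each group on each day, none of these differences between days was tested. The share of reads on Mef2c in the library labelled shMef2c was 2.21 times that of shCtrl at day 0 and 0.238 times at day 5.

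The other genes are named genes with a mean of 1 FPKM or more at day 5, at least 1.5-fold apart on both days with opposite signs, given as log2 ratios of the shMef2c label over shCtrl. Lower at day 0 and higher at day 5 were Aim2 (-0.90 and 0.71), Etv1 (-0.90 and 0.62), Tcf15 (-0.59 and 1.70), Fgf17 (-0.78 and 2.14) and Fgf8 (-0.61 and 2.12). Tcf15, Fgf17 and Fgf8 are genes of early epiblast and mesoderm. Higher at day 0 and lower at day 5 were Thbs1 (0.93 and -0.99), Timp3 (0.87 and -0.76), Nefl (0.59 and -3.47) and B2m (0.67 and -0.64). Thbs1 and Timp3 are in the fibroblast list. Below that mean at day 5, Krt17 (-0.94 and 0.90) and Lum (0.91 and -0.60) also had opposite signs.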

How the results depend on the processing

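The 16 genes higher and 12 lower at 2-fold became 64 and 29 with a pseudocount of 0.1, 3 and 4 with a mean of 5 RPKM or more, 35 higher after rescaling to TPM, 251 and 67 at 1.5-fold, and 5 and 0 at 4-fold. They became 230 and 83 with WT as the control and 6 and 3 against both controls. Leaving out clone-like, histone and chromosome 2 zinc finger names, a choice made after seeing the data, left 5 and 5. The 90 genes higher and 61 lower for shCtrl over WT became 175 and 129 with a pseudocount of 0.1, 52 and 31 with a mean of 5 RPKM, and 102 lower in TPM. The share of calls that were higher was 57.1%, and was 68.8% with the pseudocount of 0.1, 67.3% in TPM, 42.9% with a mean of 5 RPKM, 55.6% after centring on the median and 61.1% with edgeR's TMM scaling. The median over all genes was 0.035 and became -0.026 with TMM. The cause of these changes was not tested beyond the smaller number of genes or other limit that each setting brings.

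Over 9 settings each, medians ranged from 0.62 to 0.75 for the fibroblast list, 0.38 to 0.81 for the macrophage list, -0.38 to -0.16 for the cholesterol list and 0.24 to 0.93 for the p53 list. The p53 median was 0.93 with WT and 0.43 with KO as the control, the macrophage median 0.81 with WT, and the cholesterol median -0.16 with KO. KO as the control was added after seeing the data. Among lists with a median of at least 0.1 in size, some medians changed sign. With a mean of 5 RPKM these were the MEF2 family and its partners (-0.03), Wnt targets (-0.00) and interferon genes (-0.07). With another control they were germline genes with WT (-0.18) and KO (-0.36), 2-cell-like genes with KO (-0.89), and the zinc finger copies with WT (0.17). Smaller medians also changed sign with WT, such as glycolysis genes from -0.06 to 0.21 and trophoblast genes from 0.01 to -0.27. Of 1208 recomputed ratios of 182 named genes, 39 moved beyond counting error and 0 of those past 2-fold changed sign. The chromosome 6 median stayed above 0 in the 7 settings run.

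No paired analysis was possible because each group has 1 library. No library can be left out for the same reason. Depth limits genes near 1 RPKM, such as Fgf8 and Spink1, to few reads.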
